A study of Bos taurus with 10 samples.

Results

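The tumour necrosis factor (TNF) superfamily was read by 25 probe sets of 17 genes, out of 24016 probe sets and 9155 genes named by a single symbol on the bovine array. Its members were all probe sets whose only gene symbol begins with TNFSF or TNFRSF or is one of TNF, LTA, LTB, LTBR, CD40, CD40LG, CD27, CD70, NGFR, EDAR, EDA and EDA2R. FAS and FASLG are not counted among them here. Ligands made up 7 of the genes with 9 probe sets, and receptors made up 10 of the genes with 16 probe sets. Of the symbols listed, CD27, CD70, EDAR, EDA and EDA2R were not analysed here.

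Neighboring samples (n = 5) were mammary glands of cows that carried an infection in another gland of the same udder, into which 500 CFU of E. coli 1303, an isolate from clinical mastitis, had been given in 2 ml of saline 24 h before slaughter. Healthy samples (n = 5) were glands of other cows that received no inoculum. All 10 cows were primiparous, mid-lactating German Holstein Frisian animals whose oestrus had been synchronised with cloprostenol and which had been milked out under 20 IU of oxytocin. Each array stood for 1 cow, and by the methods of the study neighboring 1, 2, 3 and 5 combined a gland given sterile saline with an untreated one, neighboring 4 was a single untreated gland, and healthy samples came from 1 gland or a pair. Saline and the distant infection therefore cannot be told apart in the pooled samples. Following the same methods, neighboring 5 and healthy 3 were kept out of the test, which compared 4 neighboring with 4 healthy arrays. The paper excluded neighboring 5 as a biological outlier and healthy 3 as a technical outlier. In its clustering of whole expression profiles, neighboring 5 was placed with the healthy controls. Leaving out a neighboring array that resembled the healthy ones can enlarge the group differences. The differences and p-values of the test therefore hold only for the arrays kept. Where values are given array by array, both set-aside arrays are included.

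Ligands of this family are trimeric proteins, on the cell surface or shed from it, that cluster their receptors on a target cell. One branch of the receptors carries a death domain and can start cell death through FADD and caspases, while the other recruits TRAF adaptors and switches on the transcription factor NF-kB. Decoy receptors bind ligand without passing on a signal. In the lactating udder TNF is known as an early cytokine of coliform mastitis, released mainly by macrophages.

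Values are log2 intensities, so a difference of 1 is a doubling. A member was called when its adjusted p (limma, Benjamini-Hochberg over all 14409 probe sets above the intensity filter) was under 0.05. Among the 13 family probe sets above the filter 2 were called higher in neighboring glands, TNFRSF6B and LTBR, where 17.7% of all probe sets were called higher. Another 2 were called lower, one for LTB and one for TNFRSF25, against a background of 12% lower. The remaining 9 were not called. With so many calls across the array, a count of 2 in each direction was near the background share. The median difference was −0.03 over the 13 members above the filter and 0.03 over all probe sets above it. At the thresholds used in the study (adjusted p under 0.01 and over 2-fold), TNFRSF6B alone passed among the members, where 1.71% of probe sets passed higher and 1.05% lower.

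**Figure D1:**
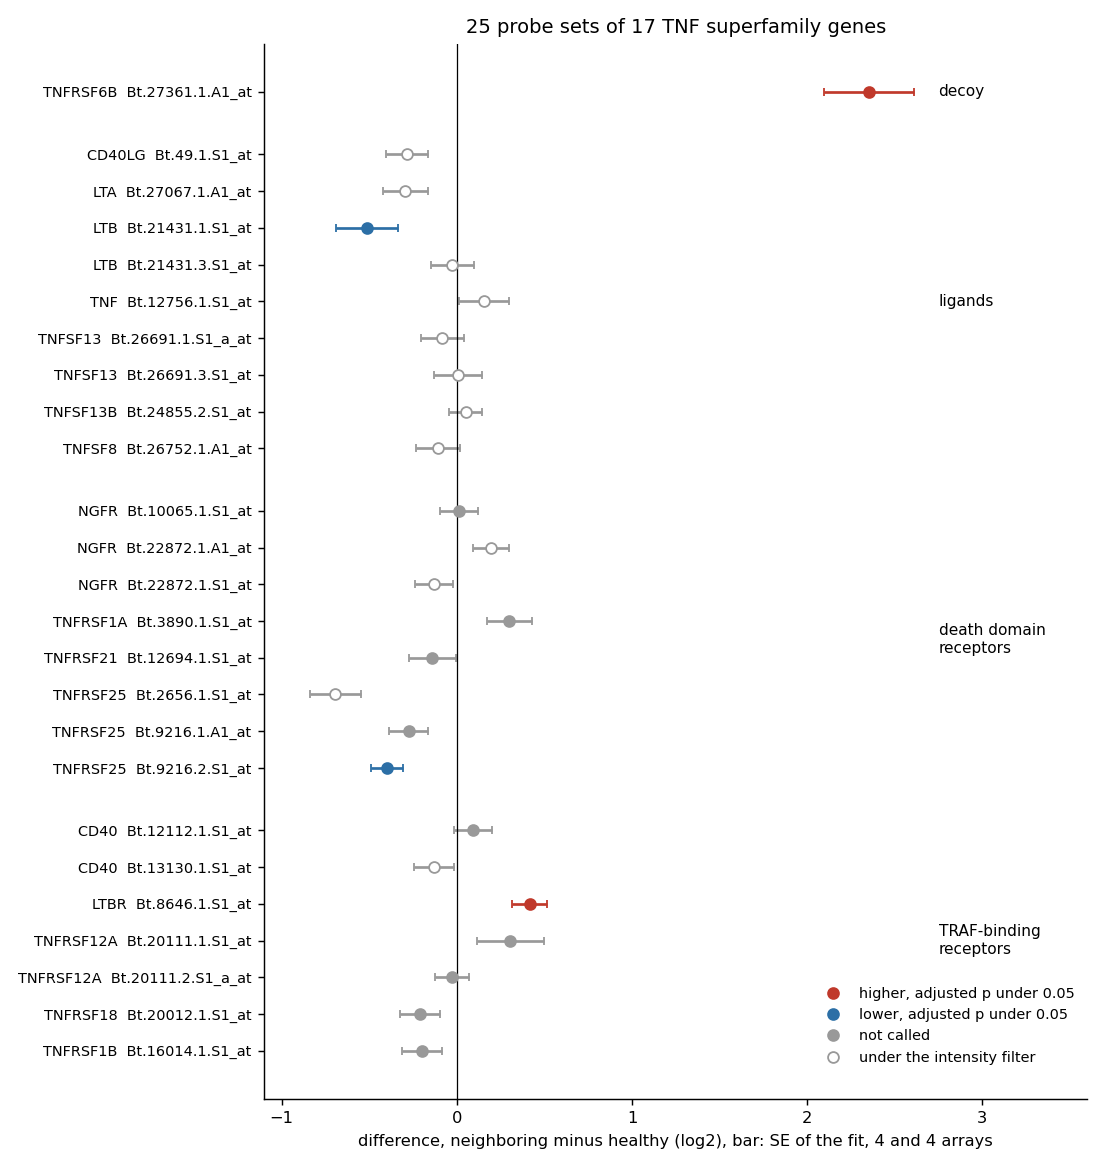
Difference between neighboring and healthy glands (log2, horizontal axis) with the SE of the fit for each of the 25 probe sets, grouped by role from top to bottom as decoy, ligands, death domain receptors and TRAF-binding receptors. TNFRSF6B stands at 2.35, and the other 24 probe sets lie between −0.70 and 0.42. Open points are probe sets under the filter, which the reported fit did not test.

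TNFRSF6B, read by a single probe set, had the largest difference of the family. In humans its product is a soluble decoy that binds and neutralises FASLG, TNFSF14 and TNFSF15, and mice have no counterpart of the gene. Log2 intensities were 9.19, 9.13, 9.47 and 9.35 on neighboring 1 to 4 and 8.30 on neighboring 5, against 6.79, 6.12, 7.24 and 7.58 on healthy 1, 2, 4 and 5 and 6.68 on healthy 3. Every neighboring array lay above every healthy array, including the set-aside ones. The groups also lay apart in this direction for 2.68% of all 24016 probe sets over the 10 arrays. Over the 8 arrays of the fit, TNFRSF6B averaged 9.29 ± 0.15 in neighboring glands and 6.93 ± 0.63 in healthy glands (SD, n = 4 each). It rose by 2.35 ± 0.26 (SE), which is 5.11-fold, with a 95% confidence interval of 1.78 to 2.92 (adjusted p = 0.000346). With all 10 arrays the difference was 2.20 ± 0.28 (adjusted p = 0.00601), in a fit that called 7.16% of probe sets higher and 5.37% lower.

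Among healthy cows TNFRSF6B itself was uneven. The 5 healthy arrays spanned 1.46 log2 units, from 6.12 on healthy 2 to 7.58 on healthy 5. Their SD of 0.56 exceeded that of 96.1% of the probe sets above the filter. Neighboring 5, which the study set aside, lay between healthy 5, the highest healthy array, and neighboring 2, the lowest of the other 4. Leaving out each array in turn moved the difference between 2.08 (without healthy 2) and 2.57 (without healthy 5), and the call held each time. The means of both groups were above the intensity filter of 5.71.

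Of the 3 ligands of TNFRSF6B, TNFSF14 and TNFSF15 were not analysed here. Both probe sets of FASLG, the death-inducing ligand of cytotoxic lymphocytes, lay under the filter, with differences of −0.30 ± 0.15 and −0.31 ± 0.12 (adjusted p = 0.189 and 0.0955 without a filter). FAS, the signalling receptor that competes with the decoy for FASLG, rose by 0.64 ± 0.12 (adjusted p = 0.00380). Over all 10 arrays FAS missed the threshold (difference 0.49, adjusted p = 0.0508), and neighboring 5, at 7.36, lay among the healthy values. In the ARS-UCD2.0 gene table TNFRSF6B stands between ARFRP1, a small GTPase gene, and RTEL1, a telomere helicase gene. ARFRP1 rose by 0.52 ± 0.10 (adjusted p = 0.00534), and RTEL1 differed by −0.05 ± 0.08 (adjusted p = 0.677). The interval of ARFRP1, 0.29 to 0.75, ended below that of TNFRSF6B, which started at 1.78.

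**Figure D2:**
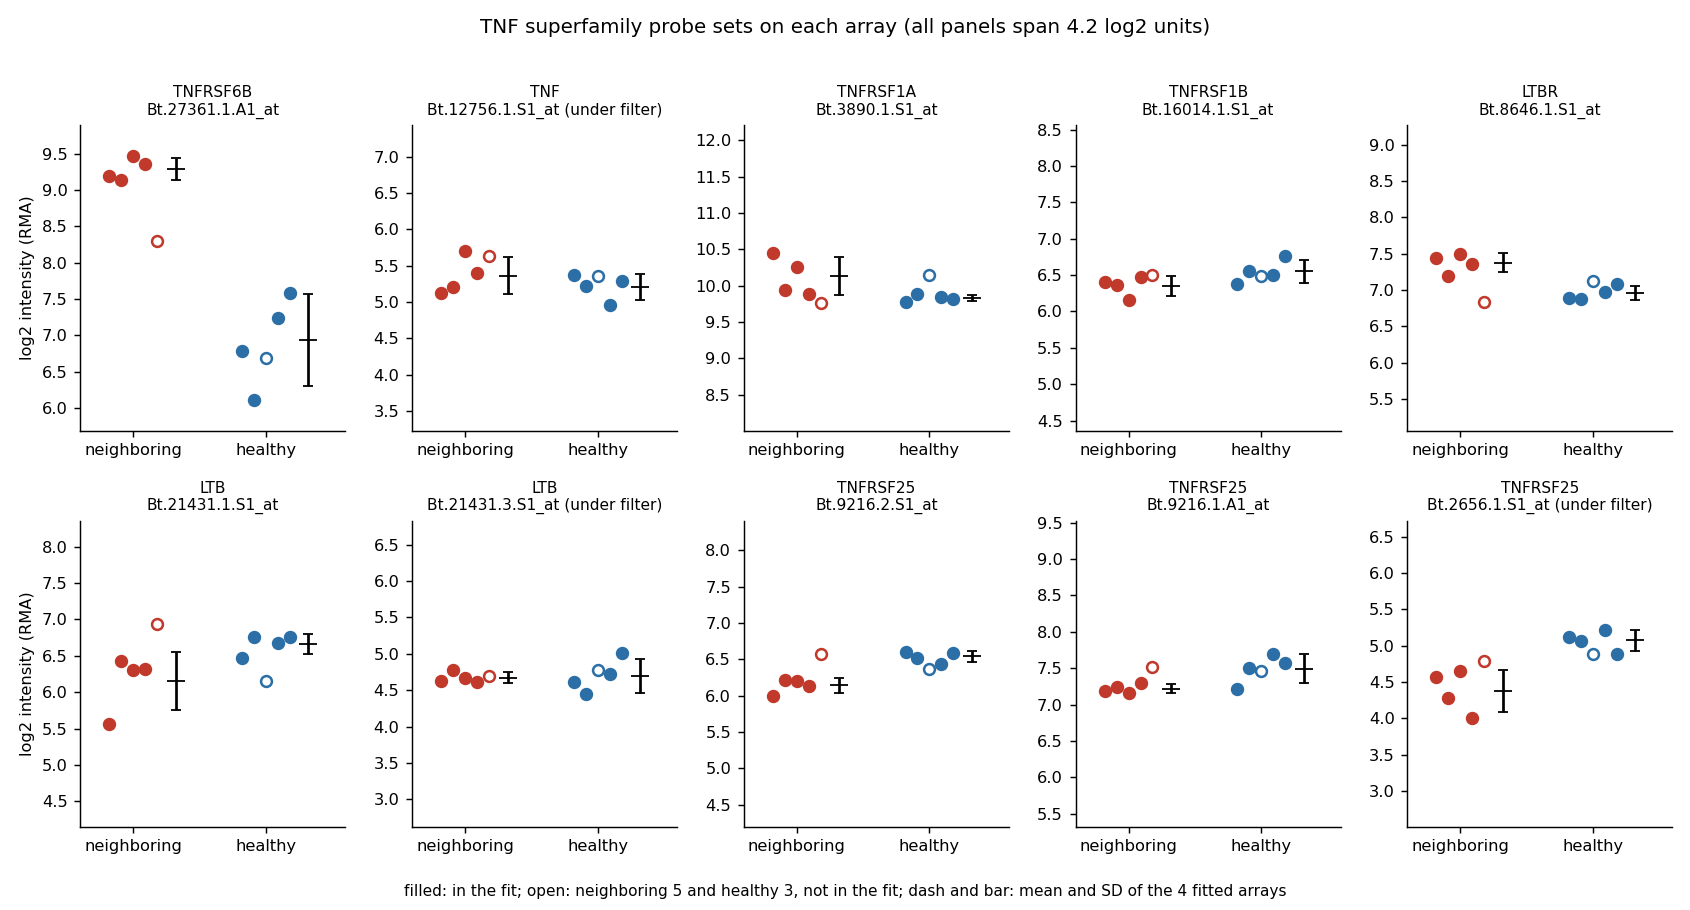
Log2 intensity of 10 family probe sets on each array, neighboring on the left and healthy on the right of every panel, with all panels spanning 4.2 log2 units. Filled points entered the fit, open points are neighboring 5 and healthy 3, and the dash with its bar gives the mean and SD of the 4 fitted arrays. TNFRSF6B has all 5 neighboring arrays at 8.30 or above and all 5 healthy arrays at 7.58 or below.

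TNF, the founding ligand and the trigger of acute inflammation, was read by a single probe set under the filter. Its intensities were 5.13, 5.21, 5.70 and 5.40 on neighboring 1 to 4 and 5.63 on neighboring 5, against 5.36, 5.22, 4.96 and 5.28 on healthy 1, 2, 4 and 5 and 5.35 on healthy 3. The groups overlapped. TNF differed by 0.15 ± 0.14 with a 95% interval of −0.16 to 0.46 (adjusted p = 0.455 without a filter). The limit of 0.46 holds for this fit of 8 arrays only, and for a probe set under the filter. With neighboring 5 put back the difference was 0.21 ± 0.14. Over 18 alternative fits it ran from 0.04 to 0.34 and was never called.

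Its receptors TNFRSF1A and TNFRSF1B did not pass the test. TNFRSF1A, the death domain receptor found on nearly all cells, read 10.45, 9.94, 10.26 and 9.89 on neighboring 1 to 4 and 9.77 on neighboring 5, against 9.78, 9.88, 9.85 and 9.82 on healthy 1, 2, 4 and 5 and 10.15 on healthy 3. The fitted arrays did not overlap, as for 12.7% of all probe sets in this direction, but neighboring 5 read below every healthy array and healthy 3 fell within the neighboring range. The difference was 0.30 ± 0.13, with an interval of 0.01 to 0.59 (adjusted p = 0.103).

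TNFRSF1B, the TRAF-binding TNF receptor of leukocytes and endothelium, read 6.40, 6.36, 6.16 and 6.48 on neighboring 1 to 4 and 6.50 on neighboring 5, against 6.37, 6.56, 6.51 and 6.76 on healthy 1, 2, 4 and 5 and 6.49 on healthy 3. The groups overlapped, and the difference was −0.20 ± 0.11 with an interval of −0.45 to 0.05 (adjusted p = 0.199). In the ARS-UCD2.0 table the gene model of TNFRSF1B overlaps that of TNFRSF8, as LTB does LST1 and TNFRSF12A does CLDN6, and which transcript the probes match was not checked.

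The lymphotoxin axis had a called receptor and a called ligand in opposite directions. LTBR, the lymphotoxin beta receptor of epithelial and stromal cells, which activates the NFKB2 arm of NF-kB signalling, read 7.44, 7.20, 7.50 and 7.36 on neighboring 1 to 4 and 6.83 on neighboring 5, against 6.90, 6.88, 6.98 and 7.08 on healthy 1, 2, 4 and 5 and 7.12 on healthy 3. All 4 fitted neighboring arrays exceeded all 5 healthy arrays, whereas neighboring 5 was the lowest of the 10. The groups of the 8 fitted arrays lay apart in this direction for 12.7% of all probe sets. LTBR rose by 0.42 ± 0.10, which is 1.33-fold (adjusted p = 0.0121). Putting neighboring 5 back ended the call (difference 0.31, adjusted p = 0.146), and over all 10 arrays the difference was 0.28 (adjusted p = 0.152).

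LTB, which anchors lymphotoxin to the surface of lymphocytes, was read by the brighter of its probe sets at 5.57, 6.42, 6.30 and 6.32 on neighboring 1 to 4 and 6.94 on neighboring 5, against 6.47, 6.77, 6.67 and 6.76 on healthy 1, 2, 4 and 5 and 6.16 on healthy 3. Neighboring 5 was the highest array and healthy 3 the lowest but one, so that over all 10 arrays the groups overlapped. LTB fell by 0.51 ± 0.18 in the fit (adjusted p = 0.0498), barely past the threshold. Its call ended in 6 of the 8 fits that left out an array, with an adjusted p of 0.0704 without neighboring 3, 0.0595 without neighboring 4, 0.0557 without healthy 1, 0.103 without healthy 2, 0.0950 without healthy 4 and 0.107 without healthy 5. Without neighboring 1, the lowest array, LTB still passed with a smaller difference of −0.32.

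The dimmer LTB probe set did not show the decrease. It lay under the filter at 4.63, 4.77, 4.67 and 4.61 on neighboring 1 to 4 and 4.70 on neighboring 5, against 4.62, 4.45, 4.72 and 5.0 on healthy 1, 2, 4 and 5 and 4.78 on healthy 3 (difference −0.03 ± 0.12, adjusted p = 0.896 without a filter). LTA, the secreted partner of LTB, also lay under the filter and differed by −0.29 ± 0.13 (adjusted p = 0.124 without a filter), with 4.60 to 5.08 on neighboring 1 to 4 and 5.33 on neighboring 5, against 5.07 to 5.41 on the 4 fitted healthy arrays and 4.96 on healthy 3. LTB, TNF and LTA are adjacent genes in the ARS-UCD2.0 table, and the differences of their probe sets ran from −0.51 to 0.15.

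TNFRSF25 had 3 probe sets, all with a lower mean in neighboring glands, of which 1 was called and another passed only in the fit without a filter. It encodes the death domain receptor for TNFSF15 and is known mainly from T cells. The probe set of middle intensity read 6.00, 6.22, 6.20 and 6.13 on neighboring 1 to 4 and 6.57 on neighboring 5, against 6.60, 6.52, 6.44 and 6.59 on healthy 1, 2, 4 and 5 and 6.36 on healthy 3. It fell by 0.40 ± 0.09 (adjusted p = 0.0104), with the 4 fitted neighboring arrays below all healthy ones and neighboring 5 among the healthy values. Over the 8 fitted arrays the groups lay apart in this direction for 12.7% of all probe sets. With neighboring 5 back in the fit the call ended (adjusted p = 0.101).

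The dimmest probe set of TNFRSF25 lay under the filter and read 4.58, 4.28, 4.65 and 4.01 on neighboring 1 to 4 and 4.80 on neighboring 5, against 5.12, 5.07, 5.22 and 4.89 on healthy 1, 2, 4 and 5 and 4.88 on healthy 3. Here all 5 neighboring arrays stood below all 5 healthy arrays, as for 3.21% of all probe sets. In the fit without a filter it fell by 0.70 ± 0.15 (adjusted p = 0.00822), where 9.21% of probe sets were called lower and 11.1% higher, and over all 10 arrays without a filter its adjusted p was 0.0391. With neighboring 5 alone put back it just missed the threshold (adjusted p = 0.0517 without a filter). It is the only member besides TNFRSF6B whose 10 arrays separated by group.

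The brightest TNFRSF25 probe set read 7.19, 7.24, 7.16 and 7.29 on neighboring 1 to 4 and 7.52 on neighboring 5, against 7.21, 7.51, 7.69 and 7.57 on healthy 1, 2, 4 and 5 and 7.46 on healthy 3. Its difference of −0.27 ± 0.11 did not pass (adjusted p = 0.0888), and healthy 1 read within the range of the fitted neighboring arrays. Without healthy 1 it passed (difference −0.37, adjusted p = 0.0292).

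LTB and TNFRSF25, each with 1 probe set called lower, are known from lymphocytes, so T cell markers are given beside them. In this and the other marker lists each gene was read by its brightest probe set alone. Of 10 T cell markers 8 were above the filter and 5 of them fell, CD3D, CD3E, CD2, LCK and ZAP70, by 0.48 to 0.75 on the log2 scale, where 12% of all probe sets were called lower. Over all 10 arrays only ZAP70 of these 5 passed (adjusted p = 0.0395), and CD3D, CD3E, CD2 and LCK did not (adjusted p = 0.159, 0.109, 0.102 and 0.0770). The other 3, CD3G, CD247 and CD6, differed by −0.71, −0.32 and −0.16 and were not called. The mean over the T cell list was 6.04 to 6.38 on neighboring 1 to 4 and 6.75 on neighboring 5, against 6.60 to 6.81 on the fitted healthy arrays and 6.64 on healthy 3. Neighboring 5 was therefore inside the healthy range for the T cell list and for the called TNFRSF25 probe set, and it was above that range for LTB. In whole tissue, fewer cells of a type and less RNA per cell cannot be told apart, and the part of T cell content in the LTB and TNFRSF25 results was not tested.

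B cell markers were mostly under the filter. Of 8 listed, 4 had a probe set and CR2 alone was above the filter, where it fell by 0.32 ± 0.10 (adjusted p = 0.0367, and 0.300 over all 10 arrays). The list mean was 4.93 to 5.13 on neighboring 1 to 4 and 5.52 on neighboring 5, against 5.19 to 5.47 on the fitted healthy arrays and 5.28 on healthy 3. Neighboring 5 was thus slightly above every healthy array for B cell markers.

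Neutrophil and macrophage lists moved less evenly. Beside the marker counts that follow, 17.7% of all probe sets above the filter were called higher and 12% lower. Of 8 neutrophil markers with a probe set only 3 were above the filter. S100A8 and S100A12 rose by 2.42 and 1.98, and S100A9 differed by 0.17 and was not called by limma (adjusted p = 0.221). The paper, in contrast, lists S100A9 with S100A8 and S100A12 among the genes raised in infected and neighboring glands. Here S100A9 was read by its brightest probe set alone, and the reason for the disagreement was not tested. S100A8 and S100A12 encode calgranulins that epithelial cells can also make. CXCR1, MMP9, FCGR3A, ITGAM and MPO were all under the filter with differences of −0.43 to 0.05, and at such low intensities a change could be missed. The part of neutrophil content in the S100A8 and S100A12 results was not tested. The neutrophil list mean was 5.34 to 5.93 on neighboring 1 to 4 and 5.77 on neighboring 5, against 5.03 to 5.26 on the fitted healthy arrays and 4.87 on healthy 3. Of 7 macrophage markers 2 fell, in that MSR1 fell by 1.90 and CD14 fell by 1.08, and the complement and lineage genes C1QA, C1QB, C1QC, CD68 and CSF1R were not called (differences −0.07 to 0.34). Macrophage list means were 7.98 to 8.54 on neighboring 1 to 4 and 8.30 on neighboring 5, against 8.42 to 8.62 on the fitted healthy arrays and 8.07 on healthy 3. Of 7 fibroblast markers COL1A1, COL3A1 and LUM were called lower, PDGFRA was called higher, and COL1A2, PDGFRB and DCN were not called. Of 5 myoepithelial markers ACTA2, OXTR and MYH11 were called lower, ACTA2 no longer over all 10 arrays (adjusted p = 0.0577). The tissue itself read as lactating mammary gland on all arrays, with the alveolar list of caseins, LALBA, ELF5 and keratins at a mean of 11.88 to 12.21 on neighboring 1 to 4 and 11.85 on neighboring 5, against 11.68 to 11.86 on the fitted healthy arrays and 11.97 on healthy 3. The list mean of the fitted neighboring arrays exceeded that of the fitted healthy ones, and healthy 3 lay within the neighboring range. Of the 8 markers 4 differed upward and 4 downward. KRT8 (under the filter), KRT18 and KRT19 differed by 0.50, 0.77 and 1.10 and CSN2 by 0.09. CSN1S1, CSN3, LALBA and ELF5 differed by −0.09, −0.03, −0.09 and −0.11. Of the 7 alveolar markers above the filter KRT19 was called, with a rise of 1.10 ± 0.23 (adjusted p = 0.00602, and 0.0771 over all 10 arrays). The part of epithelial and stromal content in the LTBR result was not tested.

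**Figure D3:**
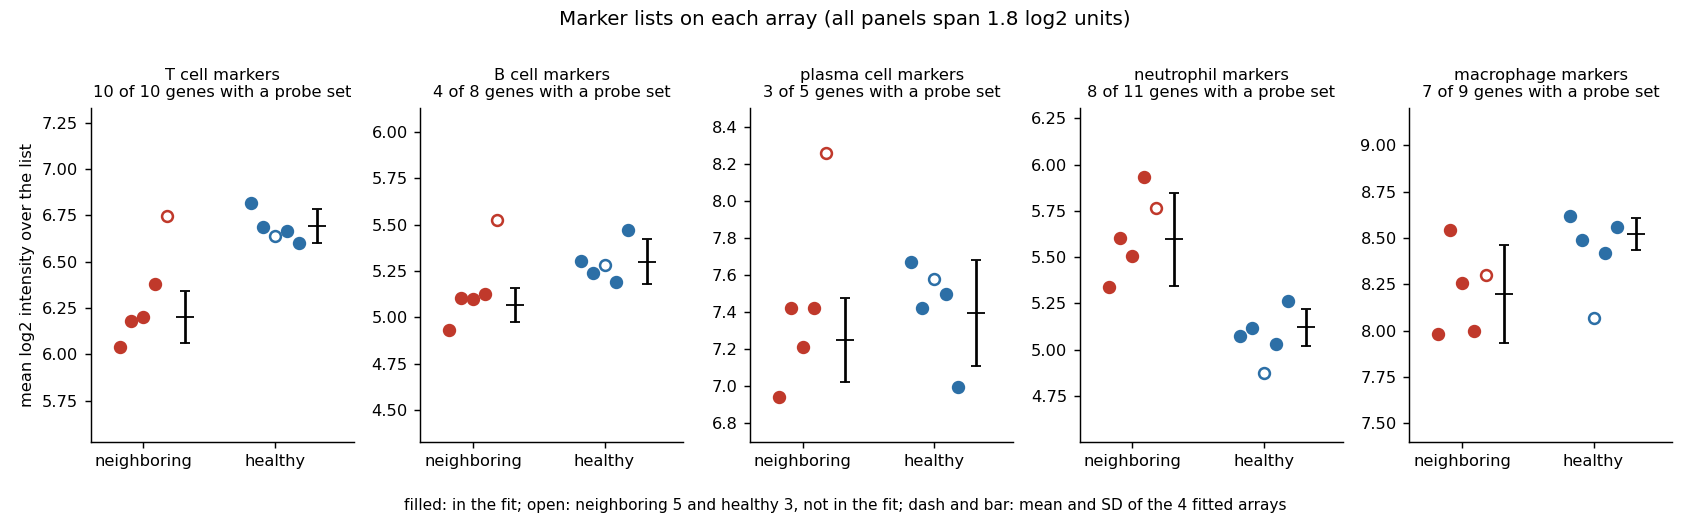
Mean log2 intensity of 5 marker lists on each array, neighboring on the left and healthy on the right, with all panels spanning 1.8 log2 units, filled points in the fit and open points not. For T cell markers the fitted neighboring arrays lie at 6.04 to 6.38, below all healthy arrays, and neighboring 5 lies at 6.75.

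The other ligands were all under the filter. CD40LG, the T cell ligand that licenses B cells and macrophages, differed by −0.28 ± 0.12 (adjusted p = 0.119 without a filter), with 4.14 to 4.53 on neighboring 1 to 4 and 4.77 on neighboring 5, against 4.48 to 4.87 on the fitted healthy arrays and 4.66 on healthy 3. TNFSF13 and TNFSF13B, which keep plasma cells and B cells alive, differed by −0.08 ± 0.12 and 0.01 ± 0.14 for the 2 TNFSF13 probe sets and by 0.05 ± 0.09 for TNFSF13B. TNFSF8, the ligand of TNFRSF8 on activated T cells, differed by −0.11 ± 0.12. These 3 genes did not pass in the fit without a filter. In all, 6 of the 7 ligand genes had every probe set under the filter, whereas each of the 10 receptor genes had at least one above it.

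The remaining receptors did not pass the test. CD40, the partner of CD40LG on B cells, macrophages and epithelium, differed by 0.09 ± 0.11 (adjusted p = 0.533), and its second probe set, under the filter, by −0.13 ± 0.11. TNFRSF12A, the inducible receptor for TNFSF12 in injured tissue, differed by 0.30 ± 0.19 for its dimmer probe set (adjusted p = 0.248) and by −0.03 ± 0.10 for its brighter one (adjusted p = 0.837). The dimmer one spanned 6.99 to 7.93 over the fitted neighboring arrays and 6.88 to 7.37 over the fitted healthy arrays, so the groups overlapped.

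TNFRSF18, a costimulatory receptor of regulatory T cells, differed by −0.21 ± 0.12 (adjusted p = 0.188). TNFRSF21, a death domain receptor, read 11.15 to 11.71 on the 5 neighboring arrays and 11.39 to 11.69 on the 4 fitted healthy arrays, with healthy 3 the highest of all, and differed by −0.14 ± 0.13 (adjusted p = 0.438). NGFR, the low-affinity neurotrophin receptor, differed by 0.01 ± 0.11 for the probe set above the filter (adjusted p = 0.945) and by 0.19 ± 0.10 and −0.13 ± 0.11 for those under it. Over the 9 probe sets not called and the 12 under the filter, the 95% interval reached 0.20 to 0.42 on either side of the estimate.

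The called members differed in how far their calls held under other ways of fitting. TNFRSF6B was called under all 20 alternatives, with differences of 2.08 to 2.57 and adjusted p-values of 0.000178 to 0.0486. The highest of these came from a fit with a covariate for the hybridization controls. These are bacterial transcripts added to every sample, whose mean intensity was 10.20 to 10.43 on neighboring 1 to 4 and 10.65 on neighboring 5, against 10.42 to 10.84 on the fitted healthy arrays and 10.64 on healthy 3. In the fitted arrays this mean was nearly split by group, so the covariate and the group could not be well told apart. The SE of the LTBR difference was 0.18 with the covariate and 0.10 without it. In the covariate fit LTBR, LTB and the middle TNFRSF25 probe set were not called (adjusted p = 0.350, 0.524 and 0.394). Their directions were as in the main result. LTBR and the middle TNFRSF25 probe set were called in each of the 8 fits that left out an array.

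**Figure D4:**
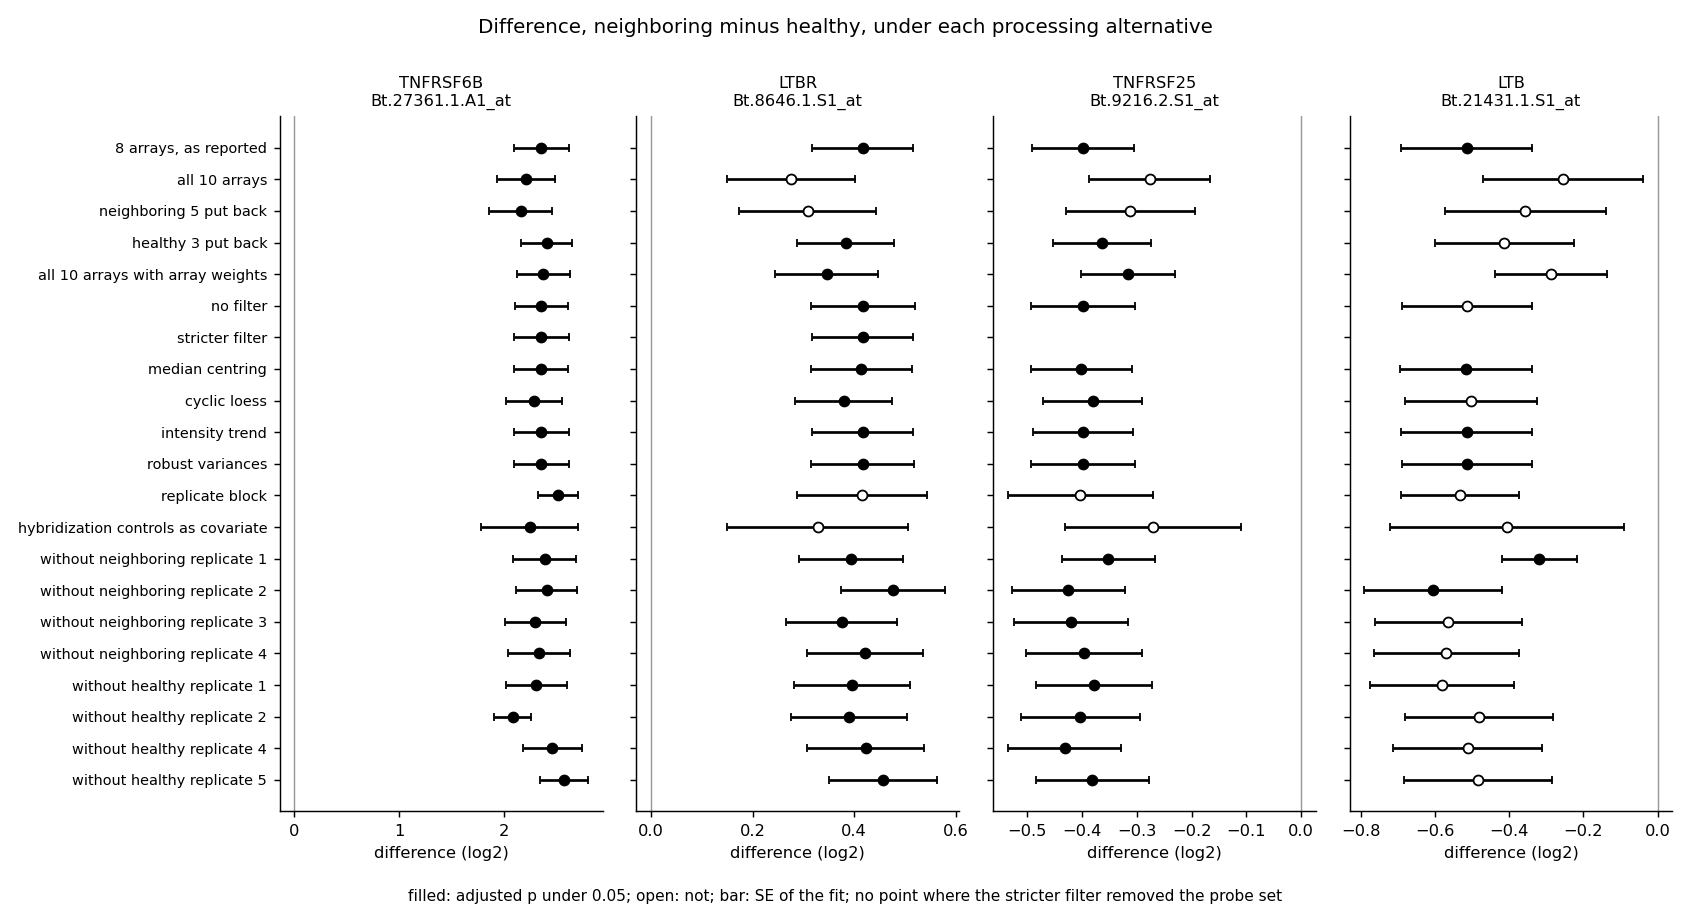
Difference between neighboring and healthy glands (log2, horizontal axis, with its own range in each panel) and its SE for the 4 called probe sets under the reported fit and each alternative. Filled points have an adjusted p under 0.05. TNFRSF6B is filled throughout, and LTB is open in 14 of 19 alternatives.

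Downstream of the receptors, 67 signalling genes were listed, of which 43 had a probe set and 38 had one above the filter. Taking the brightest probe set of each gene, 9 rose and 29 were not called. None fell by limma at the adjusted threshold. At that threshold 20.2% of all 7055 genes measured in this way rose and 11.5% fell, so the 9 of 38 were close to the background share of increases. At an unadjusted limma p under 0.05, 13 rose and 0 fell, and the share of all genes at that looser threshold was not taken. The median difference was 0.19 over the 38 genes and 0.06 over all 7055.

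Among 14 adaptors and ubiquitin ligases, 3 rose. TRAF1, an NF-kB-induced adaptor of TNFRSF1B complexes, rose by 0.62 ± 0.10 (adjusted p = 0.00227), and TRAF3IP2, better known as the adaptor of interleukin 17 receptors, by 0.69 ± 0.18 (adjusted p = 0.0182). FADD, the adaptor between death domain receptors and caspases, rose by 0.37 ± 0.11 for its brightest probe set (adjusted p = 0.0299), while 2 dimmer ones under the filter differed by −0.08 and −0.20. The FADD call ended in 6 of 8 fits that left out an array, at an adjusted p of 0.0624 without neighboring 2, 0.0828 without neighboring 3, 0.0582 without neighboring 4, 0.0667 without healthy 1, 0.0554 without healthy 2 and 0.0828 without healthy 4. TRADD and RIPK1, which assemble on TNFRSF1A, differed by 0.27 and 0.19 and were not called (adjusted p = 0.0747 and 0.121). BIRC3 differed by 0.08 for its brightest probe set (adjusted p = 0.732). The dimmer BIRC3 probe set rose by 0.44 ± 0.13 (adjusted p = 0.0301, and 0.0525 over all 10 arrays).

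In the death branch, DIABLO, which releases caspases from their inhibitors, rose by 0.52 ± 0.13 (adjusted p = 0.0146). CFLAR, the catalytically inactive caspase-8 homologue that blocks death signalling, differed by 0.21 for its brightest probe set (adjusted p = 0.164), while the dimmest of 3 rose by 0.65 ± 0.15 (adjusted p = 0.00977, and 0.108 over all 10 arrays). The caspases listed were not analysed here.

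Of 12 genes in the NF-kB and MAPK branch, CHUK and NFKB2 rose. CHUK, the IkB kinase alpha subunit that marks NFKB2 for processing downstream of LTBR, rose by 0.69 ± 0.10 (adjusted p = 0.000957). NFKB2 rose by 0.48 ± 0.10 (adjusted p = 0.00771), whereas MAP3K14, the kinase upstream of CHUK, differed by −0.09 (adjusted p = 0.449). NFKB1 and RELA, the subunits of the classical arm, differed by 0.11 and 0.22 and were not called (adjusted p = 0.354 and 0.142). The other 7 genes, JUN at −0.35 among them, were not called.

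Of 9 inhibitors 3 rose. TNIP1, which restrains NF-kB together with TNFAIP3, rose by 0.64 ± 0.14 (adjusted p = 0.00682), and CYLD, a deubiquitinase of TNF receptor complexes, by 0.46 ± 0.12 (adjusted p = 0.0197). CYLD lost its call without neighboring 3 (adjusted p = 0.0564) and without healthy 5 (adjusted p = 0.0531). NFKBIB, which holds NF-kB in the cytoplasm, had probe sets in opposite directions, with a rise of 0.45 ± 0.11 for the brighter (adjusted p = 0.0120) and a fall of 0.36 ± 0.10 for the dimmer (adjusted p = 0.0186, and 0.149 over all 10 arrays). NFKBIA, an early NF-kB target, differed by 0.38 ± 0.20 (adjusted p = 0.173). TNFAIP1, the only TNFAIP gene above the filter, differed by 0.00 ± 0.15 (adjusted p = 0.998).

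Over all 10 arrays 4 of the signalling genes rose, TRAF1, CHUK, NFKB2 and NFKBIB, with adjusted p-values of 0.0414, 0.0313, 0.0463 and 0.0322. With neighboring 5 alone put back, 2 rose, TRAF1 and CHUK. No signalling gene was called by limma once the hybridization controls, whose mean was nearly split by group, entered as a covariate.

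**Figure D5:**
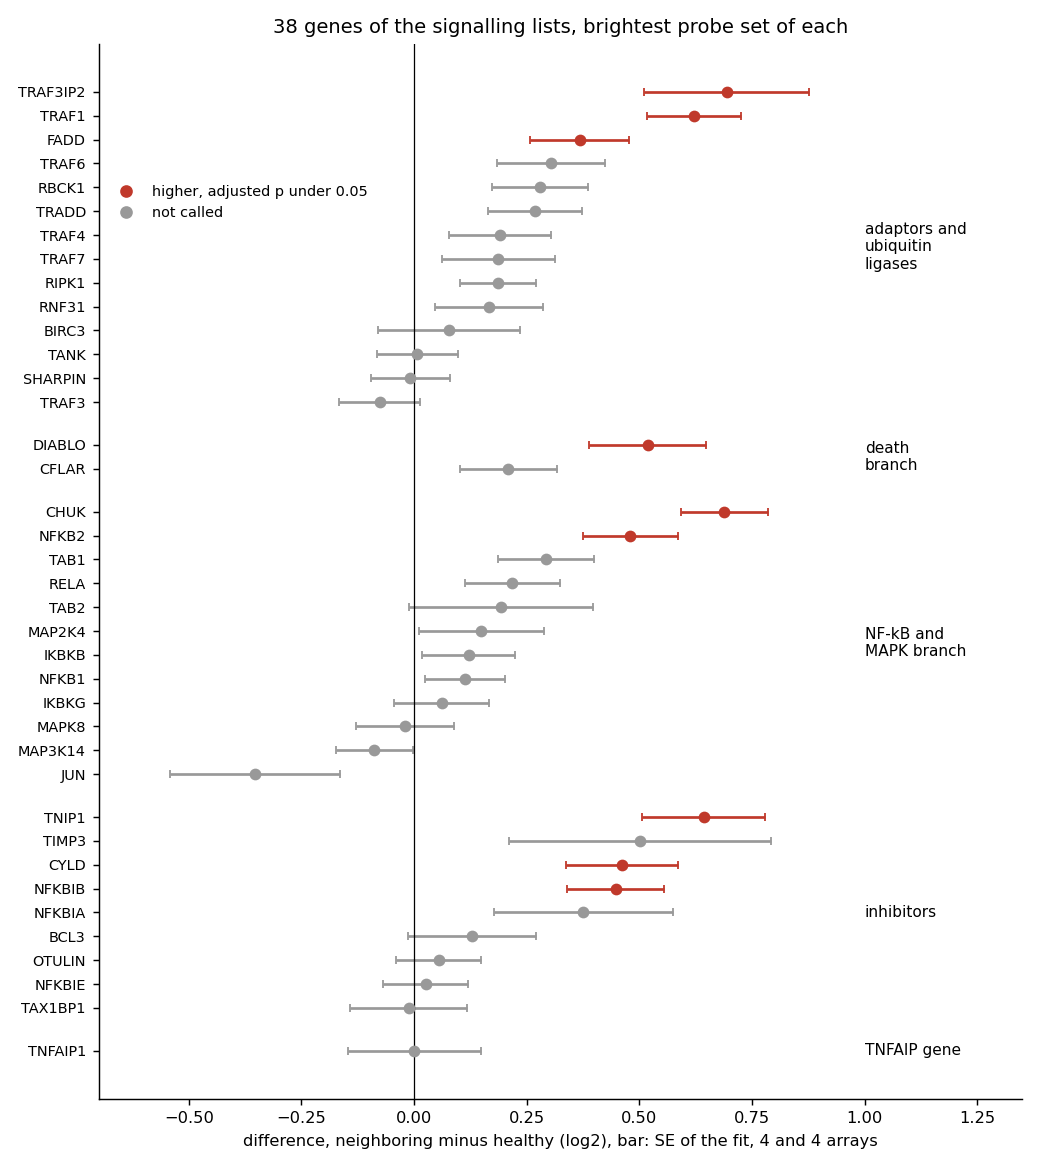
Difference between neighboring and healthy glands (log2, horizontal axis) with the SE of the fit for the brightest probe set of 38 signalling genes, sorted by size within each list. The 9 genes called higher lie between 0.37 and 0.69, and none was called lower.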

How the data were processed

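Mammary tissue RNA, obtained with TRIzol, was labelled with biotin by MessageAmp II amplification and read on Affymetrix GeneChip Bovine Genome Arrays. The values deposited by the authors are log2 intensities from RMA, which corrects background, equalises the distributions of arrays and summarises probes to probe sets; it compresses differences at low intensity. The RMA version is not given in the sources used here. The source names of the healthy samples repeat the wording of the neighboring ones, so groups were taken from the titles, and the descriptions name the same groups.

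Genes were named from the platform annotation: 13292 probe sets had 1 symbol, 86 several and 10638 none, and 112 array controls were left out. Probe sets in the lowest 40% by mean over 10 arrays were removed in place of the present calls of the study, leaving 14409. Members under this filter are given from a fit to all 24016 probe sets. Neighboring 1 to 4 and healthy 1, 2, 4 and 5 were compared by linear models with moderated variances (limma 3.58.1, R 4.3.3) without covariates, with Benjamini-Hochberg adjustment over all probe sets kept. Calls had an adjusted p under 0.05. The number of arrays limits the precision: on simulated data with 4 against 4 arrays, 56% of 1.5-fold, 91% of 3-fold and 98% of 6-fold changes were called. There, 50, 100 and 50 of 14409 probe sets were changed, and values were drawn independently with the SDs of healthy arrays. The real fit called 2548 probe sets higher and 1735 lower, so the simulated rates do not carry over to it.

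Values for each array are given for every member called, every member with a difference of at least 0.5 without the filter, TNFRSF6B, TNF, TNFRSF1A and TNFRSF1B, and all probe sets of a gene that disagreed; signalling genes are named when called, and those named uncalled were added afterwards for context. Members and lists were chosen with earlier results of these data known. Alternatives covered the arrays used, the filter, the scaling, the variance model, a replicate block, a covariate from the hybridization controls, and fits without each array. Whether samples came from separate animals is stated only in the methods of the study, with 1 array per cow. The array values had no identical pair among 45 and correlated at 0.971 to 0.992. Replicate numbers did not pair the samples, since neighboring and healthy cows were different animals.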

Additional observations from a re-analysis of the deposited data

Results flagged for a closer look

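Among the 50 groups of 5 arrays formed by the member probe sets, 3 had an extreme array whose gap to its neighbour exceeded the 95% critical value of Dixon's test, a rate that chance alone gives in about 1 of 20 groups. TNFRSF6B read 8.30 on neighboring 5 and 9.13 to 9.47 on the other neighboring arrays. The dimmer TNFSF13 probe set read 5.65 on neighboring 5 and 4.80 to 4.98 on the other neighboring arrays, and the plasma cell marker list was also highest there, at a mean of 8.26 against 6.94 to 7.67 on the other 9 arrays. TNFRSF1A read 10.15 on healthy 3 and 9.78 to 9.88 on the other healthy arrays. Both arrays are the ones the study set aside.

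Neighboring 5 did not enter the fit, and its TNFRSF6B intensity of 8.30 lay above the 6.12 to 7.58 of the 5 healthy arrays.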

How the results depend on the processing

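TNFRSF6B kept its direction and call under all 20 alternatives. Calls over the whole array, 2548 higher and 1735 lower, were 1032 and 774 with all 10 arrays, 743 and 447 with neighboring 5 put back, 850 and 631 with the replicate block, and 152 and 99 once the hybridization controls entered as a covariate; without each array in turn they ran from 1795 to 2544 and from 1201 to 1706. At the thresholds of the study the 398 calls became 15, 4, 119 and 27 in the same 4 fits and 326 to 458 without each array. Members called higher went down to 1 of the 2 in each of these 4 fits and at the study's thresholds. Members called lower were 0 in these 4 fits, with the stricter filter and at the study's thresholds, 1 with healthy 3 put back, array weights or cyclic loess, 1 to 2 without each array, and 3 at an adjusted p under 0.1. Signalling genes called higher were 4, 2, 2 and 0 in the 4 fits, 7 to 9 without each array, and 11 by the probe set with the smallest p. The dimmer LTB probe set, never called (−0.03), changed sign, at 0.00999 with array weights, 0.0810 with cyclic loess, 0.0758 with the replicate block, 0.0198 with the covariate and 0.0754 without healthy 5, the highest of a range that began at −0.111 without healthy 2. The replicate block left TNFRSF6B called alone among members above the filter. In that fit neighboring 3 and healthy 5 had no array of the same number, so its differences rested on numbers 1, 2 and 4. Deviations of same-numbered samples from their group means correlated at −0.186 to 0.165, and 1 of 5 numbers matched best with itself. The covariate of the hybridization controls was nearly split by group in the fitted arrays. The cause of the changes across fits was not tested. Probe sets under a filter have no value with that filter.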
